A study of Mus musculus with 76 samples.

Results

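The genes described here are 83 nuclear-encoded genes of the mitochondrial respiratory chain, out of 56980 genes in the deposited count table of 76 neurons. They were chosen by symbol, as every gene whose name starts with Nduf, Uqcr, Cox4, Cox5, Cox6, Cox7, Cox8 or Atp5. Of 103 such genes, 12 were pseudogenes and were left out, and 83 of the other 91 had 5 or more counts in 3 or more cells. They comprise 37 subunits of complex I, 8 assembly factors of complex I, 8 genes of complex III, 13 of complex IV and 17 of complex V. *Cox7a1*, which was just inside the filter, had 5 or more counts in 3 cells. *Cox4i2*, just outside it, reached that level in 1 cell, and *Cox8b* and *Cox8c* had no count in any cell.

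The respiratory chain sits in the inner mitochondrial membrane. Complex I takes electrons from NADH, complex III hands them to cytochrome c, and complex IV passes them on to oxygen, and all of these pump protons whose return flow drives ATP synthesis by complex V. Most subunits are made from nuclear genes and are joined by a small set made from mitochondrial DNA, and mitochondrial function in *Pomc* neurons, which restrain feeding, is known to bear on nutrient sensing and energy balance.

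The cells were arcuate neurons of male mice, recorded with a patch pipette whose content was then taken up and sequenced (Patch-seq). Tamoxifen, given in 5 daily doses at 12 weeks of age, switched on tdTomato in cells with an active *Pomc* promoter in Pomc CreERT2;tdTomato;Pomc-eGFP mice, and eGFP marked the cells whose *Pomc* promoter was active at recording. Cells with both labels are called Pomc+ here and cells with tdTomato alone Ghost, and the mice had received a chow diet (CD) or a high-fat diet (HFD) for 6 months. The 5 mice per diet came from 3 independent experiments and gave, on CD, 23 cells of the Pomc+ and 15 of the Ghost label, and on HFD 19 of each. The labels name neither the mouse nor the experiment of a cell, so each of the 4 groups is a single sample, mouse and group cannot be told apart, and no test between groups was made. Tracing depends on a promoter active at tamoxifen, and the Ghost label is a reporter reading: *Pomc* transcripts were counted in 73 of the 76 cells, at a mean of 11652 CPM (counts scaled to a total of 1000000 per cell) in Pomc+ and 6296 in Ghost cells on CD, and 3414 and 3686 on HFD.

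Total counts per cell ran from 4057 to 1452605, with a median of 322652. The group medians were 339691 in Pomc+ and 123528 in Ghost cells on CD, and 393797 and 333785 on HFD. Counts were full-length reads without molecular identifiers, so every interval and floor given covers counting error only. A set of 7 genes had a count in each of the 76 cells; these ubiquitous genes took 43.7% of all counts, and between 7.64% and 96.0% in single cells. The 83 genes took 0.0728% to 3.12% of a cell's counts, with a median of 1.25%. Between 7 and 80 of them had a count in a cell, with group medians of 62 and 53 on CD and 65 and 56 on HFD for Pomc+ and Ghost cells.

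Levels of different genes are given per 1000 coding bases, as long transcripts give more reads, for the 82 of the 83 genes with a coding length. On this scale of mean CPM over all cells, *Cox8a*, a small structural subunit of complex IV, was the highest at 2339. Next came *Cox6c*, another small subunit of complex IV, at 1609, *Cox6b1*, which links its monomers, at 1233, *Uqcr11* of complex III at 1205 and *Atp5g3*, a gene of the rotating c-ring of complex V, at 1099. *Ndufa4*, named for complex I but a subunit of complex IV, stood at 992 and *Cox4i1*, the subunit through which ATP acts on complex IV, at 869. *Ndufaf7*, a methyltransferase that helps to assemble complex I, was the lowest at 17.4. By complex, the median gene lay at 869 in complex IV, 632 in complex III, 439 in complex V, 239 in complex I and 34.7 among the assembly factors. The median share of cells with a count was 82.9% for complex IV and 29.6% for the assembly factors, and single genes ranged from 5.26% to 92.1%.

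Summed over the 83 genes, Pomc+ cells on CD spanned 728 to 24209 CPM (median 13476). Ghost cells on CD spanned 6303 to 25766 (median 13552). On HFD, Pomc+ cells spanned 4858 to 24777 (median 12145) and Ghost cells 4514 to 31222 (median 12241). All 4 groups overlapped over most of their range, and the lowest cell, cell 706 of the Pomc+ CD group, had 96.0% of its counts on the ubiquitous genes. The group means were 13207 and 14514 CPM on CD and 12715 and 14133 on HFD for Pomc+ and Ghost cells.

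**Figure D1:**
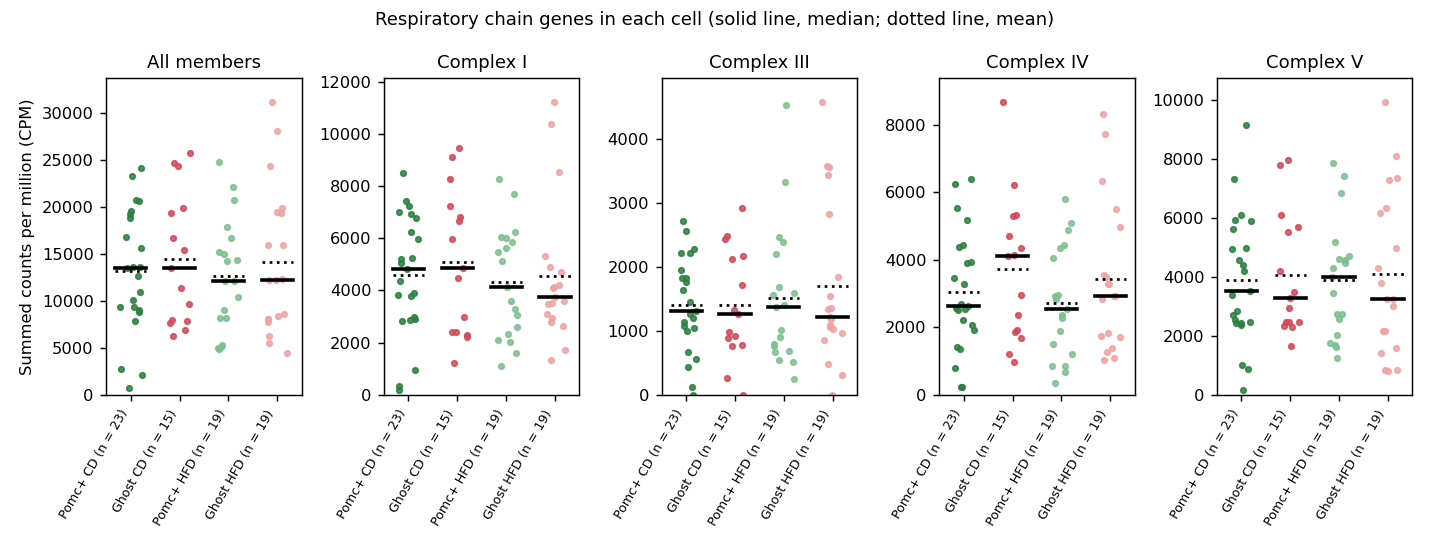
Summed CPM of the 83 genes and of complexes I, III, IV and V in each of the 76 cells, by group, with the median as a solid and the mean as a dotted line. The groups overlapped in every panel; on the deposited normalized scale the Ghost to Pomc+ ratio of the sum of the 83 genes on CD was 0.641 in place of 1.10.

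The comparison of labels on CD asks how traced cells without eGFP differ from those with it in mice on chow. The summed level was 1.10 times as high in Ghost as in Pomc+ cells by CPM. By the deposited normalized values, which divide each cell by a size factor, it was 0.641 times as high. Relative to ribosomal protein genes, whose own summed CPM ratio was 1.69, it was 0.652 times as high. The direction thus depends on the scale: 48 of the 82 genes with a count in both groups were higher in Ghost cells by CPM and 11 of 82 by normalized values. Across all genes past the filter, the median log2 ratio was −0.06 by CPM and −0.74 by normalized values, against 0.19 and −0.61 for the 82 genes, and 48% and 30.8% of all genes were higher in Ghost cells. Without cell 668 the CPM median of the 82 was 0.036. With normalized values none of the 83 was 2-fold higher and more than by CPM were 2-fold lower, beside 14.6% and 45.7% of all genes. At 2-fold or more by CPM, 2 of the 83 were higher in Ghost cells, beside 23% of all genes, and 6 were lower, beside 31.1%. Here a group at 0 was set to a floor of 3 counts over its summed total. This floor is not a bound on a mean over cells, as 1 count in a shallow cell can exceed it. Without the genes at 0 in 1 group, the counts were 2 and 5 here, 10 and 5 on HFD, 6 and 9 for diet in Pomc+ cells and 7 and 6 in Ghost cells. Without cell 659 the higher count was 1 and without cell 662 it was 4, and without cell 687 the lower count was 11. *Cox7a2l* was 2-fold higher and *Ndufs3*, *Uqcrc2* and *Ndufaf1* were 2-fold lower by CPM whichever cell was left out. The call of *Cox7a2l* was lost by normalized values.

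On HFD the same comparison of labels gave a summed ratio of 1.11 by CPM and 1.17 by normalized values. Relative to ribosomal protein genes, whose own summed CPM ratio was 1.28, it was 0.867, so the direction depends on the reference. By CPM 49 and by normalized values 43 of 81 genes with a count in both groups were higher in Ghost cells, beside 43.6% and 36.5% of all genes. Their median log2 ratio was 0.28 and 0.04 on these scales, where all genes had −0.23 and −0.51, and by CPM it was 0.066 without cell 694, with 43 genes higher. Past 2-fold, 11 of the 83 were higher in Ghost cells, beside 21.2% of all genes, and 6 were lower, beside 33.8%. *Ndufa9*, *Ndufaf6* and *Uqcrfs1* kept a higher and *Ndufa8* a lower level past 2-fold with any cell left out.

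The comparisons of diet ask what 6 months of HFD did within each label, and they share their groups with the comparisons of labels. In Pomc+ cells the summed level on HFD was 0.963 times that on CD by CPM and 0.630 times by normalized values, and without cell 662 the CPM ratio was 1.0. Relative to ribosomal protein genes it was 0.893. The genes leaned lower on HFD, 51 of 82 by CPM and 72 of 82 by normalized values. Their median log2 ratio was −0.17 and −0.63, where all genes had 0.12 and 0.07 and 54% and 51.7% of them were higher. Of the 83, 6 were 2-fold higher on HFD by CPM, beside 28.5% of all genes, and 10 were 2-fold lower, beside 22.3%. With normalized values fewer were 2-fold higher and more were 2-fold lower, beside 30.7% and 24.9% of all genes. *Ndufaf5* stayed past 2-fold higher and *Cox6a1*, *Ndufa2* and *Ndufb2* past 2-fold lower with any cell left out.

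In Ghost cells the summed level on HFD was 0.974 times that on CD by CPM and 1.15 times by normalized values, and the CPM ratio was 0.908 without cell 694 and 1.03 without cell 687. Relative to ribosomal protein genes, whose own summed CPM ratio was 0.819, it was 1.19, so this direction too depends on the reference. By CPM 39 of 81 genes were higher on HFD, and by normalized values 44. The median log2 ratio was −0.04 and 0.04 on these scales, and by CPM it was −0.22 without cell 694 and 0.07 without cell 668. All genes had −0.06 by CPM and 0.25 by normalized values, with 48.2% and 57% higher. Of the 83, 8 were 2-fold higher on HFD, beside 29.3% of all genes, and 7 were 2-fold lower, beside 27.3%. *Ndufaf5*, *Ndufaf6*, *Ndufs3* and *Uqcrc2* stayed past 2-fold higher and *Ndufa8* and *Ndufb9* past 2-fold lower with any cell left out.

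**Figure D2:**
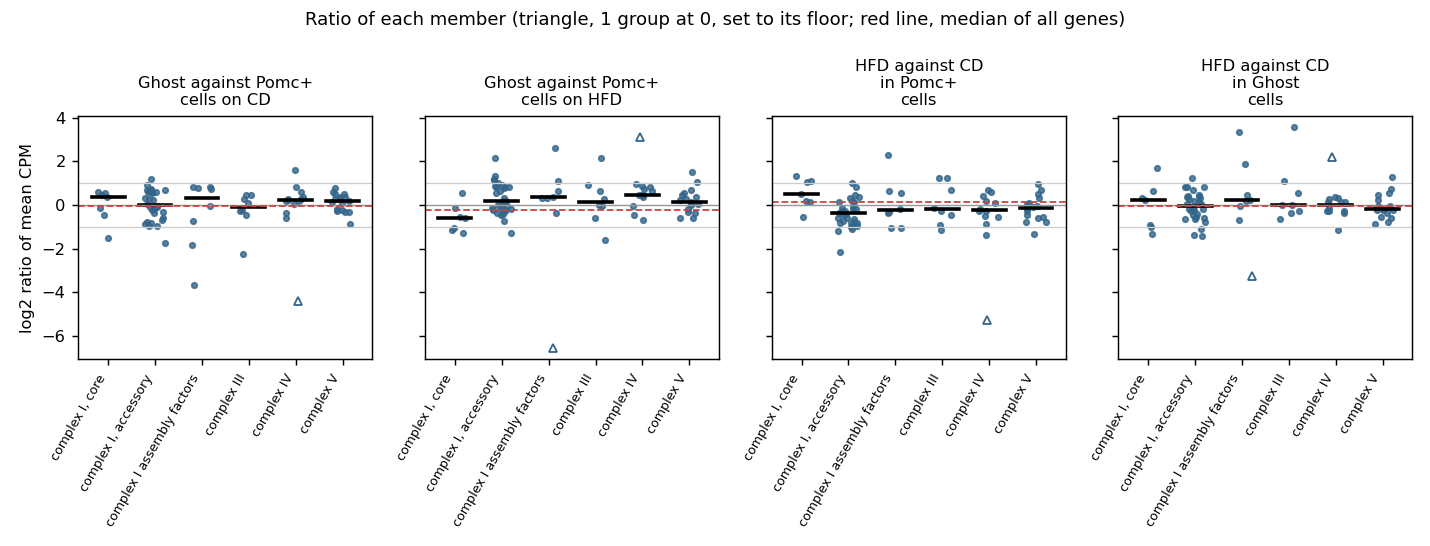
Log2 ratio of mean CPM of each gene in the 4 comparisons, by role, with triangles where 1 group was at 0 and set to its floor, the median of all genes as a red dashed line and grey lines at 2-fold. Core subunits of complex I were lower in Ghost cells on HFD for 6 of 7 genes by CPM and 7 of 7 by normalized values. Of all genes, 43.6% and 36.5% were higher there on these scales. Complex IV genes were higher in Ghost cells on CD for 10 of 12 by CPM and 2 of 12 by normalized values, beside 48% and 30.8% of all genes.

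Cell numbers ran in blocks of 1 diet each, and the blocks are not named as batches in the labels. Within the blocks that held 3 or more cells of each label, the Ghost to Pomc+ ratio of the summed CPM on CD was 0.603 for cells 630 to 636, 1.12 for cells 658 to 669, 1.51 for cells 684 to 692 and 1.04 for cells 699 to 712. On HFD it was 1.28 for cells 637 to 657 and 0.637 for cells 713 to 720. The direction of the pooled ratio therefore did not hold within every block on either diet. Cells 670 to 673 and 693 to 698 held too few cells of 1 label for a ratio.

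Complex I has 7 nuclear-encoded core subunits, which hold the flavin and the iron-sulphur clusters that carry electrons from NADH to ubiquinone. On HFD, 6 of the 7 were lower in Ghost than in Pomc+ cells by CPM, 6 of 7 without the ubiquitous genes, and 7 of 7 by normalized values. Of all genes, 43.6%, 47.3% and 36.5% were higher in Ghost cells on these scales, so most genes were lower there too. The median log2 ratio of the 7 was −0.62, −0.82 and −0.73, and by CPM it was −0.96 without cell 697 and −0.53 without cell 641. On CD, 4 of 7 were higher in Ghost cells by CPM and 0 of 7 by normalized values, beside 48% and 30.8% of all genes, with medians of 0.37 and −0.79, and without cell 668 the CPM median was −0.16 with 1 gene higher. In Pomc+ cells, 6 of 7 were higher on HFD than on CD by CPM and 4 of 7 by normalized values, beside 54% and 51.7% of all genes, with medians of 0.49 and 0.08, and without cell 672 the CPM median was 0.21. In Ghost cells 4 of 7 were higher on HFD on both scales, beside 48.2% and 57% of all genes, with medians of 0.24 and 0.09, and without cell 694 the CPM median was −0.57.

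*Ndufs1*, the largest core subunit, lay between 0 and 488 CPM (median 0) in Pomc+ cells on CD and between 0 and 269 (median 0) in Ghost cells on CD. On HFD it lay between 0 and 856 (median 88.5) in Pomc+ cells and between 0 and 555 (median 0) in Ghost cells. The Pomc+ HFD group was thus the only one with *Ndufs1* counted in most cells, though the ranges overlapped. By mean, the Ghost to Pomc+ ratio was 0.406 on HFD, 0.540 without cell 673 and 0.232 without cell 694, and 0.727 on CD. Between diets the ratio was 2.11 in Pomc+ cells, 1.59 without cell 673, and it was 1.18 in Ghost cells, 0.672 without cell 694. *Ndufv1*, which binds NADH and the flavin, had medians of 39.4 and 48.8 CPM on CD and 131 and 0 on HFD in Pomc+ and Ghost cells, from a lowest cell of 0 in each group to highest cells of 382, 718, 698 and 409 in the same order. It was lowest in Ghost cells on HFD, with overlapping ranges. Its mean there was 0.486 times that of Pomc+ cells on HFD, 0.610 times without cell 672, and 0.492 times that of Ghost cells on CD, 0.680 times without cell 684.

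*Ndufs3*, a core subunit of the arm that reaches into the matrix, lay between 0 and 438 CPM (median 45.9) in Pomc+ and between 0 and 240 (median 0) in Ghost cells on CD. On HFD it lay between 0 and 3512 (median 80.1) in Pomc+ cells and between 0 and 730 (median 0) in Ghost cells. Ghost cells were low by median on both diets, and the highest Pomc+ HFD cell, cell 693, had 10534 counts in all. On CD the Ghost to Pomc+ ratio of its means was 0.354, 0.228 without cell 687. On HFD it was 0.457, and 1.27 without cell 693. In Pomc+ cells the HFD to CD ratio was 2.48, and 0.890 without cell 693, while in Ghost cells it was 3.20, and 4.98 without cell 687.

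*Ndufs8*, a core subunit that holds iron-sulphur clusters near the ubiquinone site, had means of 54.6 and 49.7 CPM on CD and 118 and 77.1 on HFD in Pomc+ and Ghost cells. Its HFD to CD ratio in Pomc+ cells was 2.17, and 1.81 without cell 641. *Ndufs7*, which holds the last iron-sulphur cluster before ubiquinone, had means of 159 and 244 CPM on CD and 107 and 97.5 on HFD. In Ghost cells its HFD to CD ratio was 0.400, and it was 0.685 without cell 668 and 0.256 without cell 694. *Ndufv2*, an iron-sulphur partner of *Ndufv1*, had means of 193 and 286 CPM on CD and 220 and 152 on HFD. Its HFD to CD ratio in Ghost cells was 0.530, and 1.03 without cell 668. Cell 668, a Ghost CD cell, thus set the side of 1 for *Ndufv2* and the 2-fold call for *Ndufs7*.

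**Figure D3:**
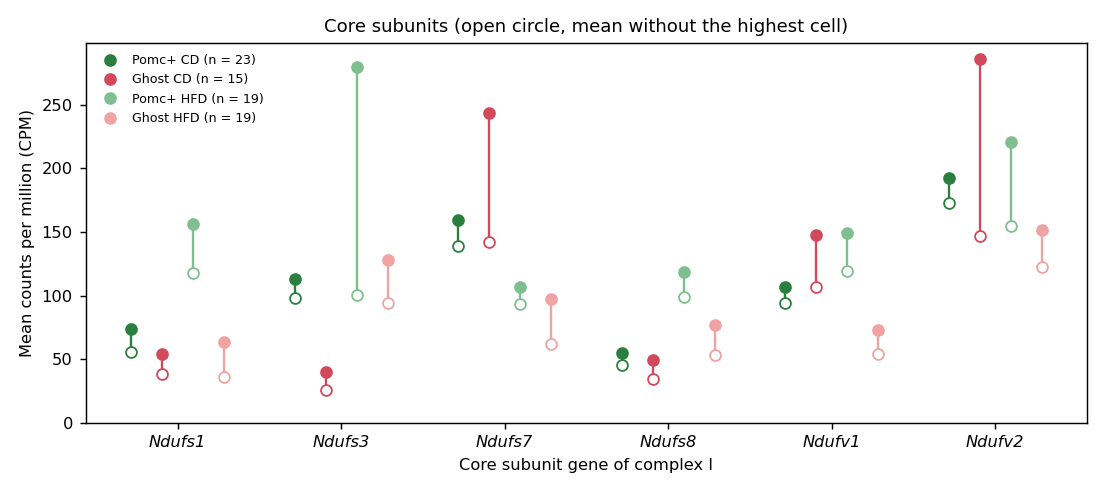
Mean CPM of 6 nuclear core subunits of complex I in each group, with open circles for the mean without the highest cell. The highest Pomc+ HFD value of *Ndufs3* rests on cell 693; without that cell its mean on HFD was 1.27 times as high in Ghost as in Pomc+ cells, in place of 0.457 times.

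Around this core lie accessory subunits, which stabilise complex I, and 30 of them were measured. In Pomc+ cells, 22 of 30 were lower on HFD than on CD by CPM, 22 without the ubiquitous genes and 28 by normalized values, where 54%, 51.4% and 51.7% of all genes were higher. The median log2 ratio on these scales was −0.38, −0.56 and −0.75, and by CPM it was −0.51 without cell 638 and −0.30 without cell 710. Core and accessory subunits thus leaned to opposite sides in this comparison by CPM, and the difference between them was not tested. In Ghost cells 15 of 30 were higher on HFD by CPM and by normalized values, and 18 without the ubiquitous genes, beside 48.2%, 57% and 48.5% of all genes in this order. Between labels, 17 of 30 were higher in Ghost cells on HFD by CPM, 21 without the ubiquitous genes and 15 by normalized values, and on CD 15, 17 and 5 of 30 were. All genes had 43.6%, 47.3% and 36.5% higher on HFD, and 48%, 49.3% and 30.8% on CD. The HFD medians on these scales were 0.18, 0.50 and −0.02.

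*Ndufa2*, an accessory subunit of the matrix arm, lay between 0 and 813 CPM (median 202) in Pomc+ and between 0 and 602 (median 200.3) in Ghost cells on CD. On HFD its cells lay between 0 and 380.4 (median 75.8) in Pomc+ and between 0 and 1549 (median 161) in Ghost cells. The Pomc+ HFD group was the low one, within the range of the others. Its HFD to CD ratio of means in Pomc+ cells was 0.444, between 0.384 and 0.495 with any cell left out. On HFD the Ghost to Pomc+ ratio was 2.49, and 1.85 without cell 694. *Ndufb2*, of the membrane arm, shares exon sequence on the same strand with a predicted gene, *Gm42420*, so its counts are uncertain. Its means were 47.4 and 14.1 CPM on CD and 10.5 and 19.4 on HFD in Pomc+ and Ghost cells. In Pomc+ cells its HFD to CD ratio was 0.222, and it was 0.373 without cell 666 and 0.137 without cell 638.

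*Ndufa8*, a disulphide-bonded subunit on the intermembrane side, was counted in 12 of 23 Pomc+ and 12 of 15 Ghost cells on CD, and in 15 of 19 and 7 of 19 on HFD. From a lowest cell of 0 in each group, its medians were 80.7 and 145 CPM on CD and 95.9 and 0 on HFD, and its highest cells 556, 891, 622 and 287 in the same order. Ghost cells on HFD were thus low for *Ndufa8*, and overlapped with each other group. Their mean was 0.410 times that of Pomc+ cells on HFD, between 0.342 and 0.478 with any cell left out, and 0.369 times that of Ghost cells on CD, between 0.308 and 0.496. *Ndufb9*, a membrane-arm subunit, had means of 65.5 and 105 CPM on CD and 43.6 and 40.3 on HFD. It shares exon sequence on the same strand with *Gm49356*, which leaves its counts uncertain, and its HFD to CD ratio in Ghost cells was 0.383.

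*Ndufa9*, a subunit near the junction of the arms of complex I, had a median of 0 in every group and was counted in 9 and 5 cells on CD and 6 and 8 on HFD, Pomc+ before Ghost. Its highest cells were at 134 and 353 CPM on CD and 195 and 447 on HFD. On HFD the Ghost to Pomc+ ratio of its means was 4.53, and 8.5 without cell 638. In Ghost cells the HFD to CD ratio was 2.33, and it was 1.85 without cell 655 and 5.24 without cell 659. *Ndufb10*, another membrane-arm subunit, had medians of 50.5 and 163 CPM on CD and 104 and 141 on HFD. By mean it was higher in Ghost cells on both diets, at a ratio of 2.28 on CD, 1.77 without cell 659, and of 2.19 on HFD, 1.5 without cell 713. *Ndufa13*, a subunit also known for a role in cell death, had means of 178 and 282 CPM on CD and 230.2 and 210.0 on HFD, and its Ghost to Pomc+ ratio on HFD of 0.912 became 1.71 without cell 639.

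Assembly factors help to build complex I and are not part of the finished enzyme. The 8 measured ones summed to means of 281 and 253 CPM on CD and 272 and 371 on HFD in Pomc+ and Ghost cells. In Ghost cells 4 of 8 were higher than in Pomc+ cells on CD by CPM and 1 of 8 by normalized values, and on HFD 6 and 5 of the 7 with a count in both groups were. The shares of all genes higher in Ghost cells were 48% and 30.8% on CD and 43.6% and 36.5% on HFD. By mean CPM over all cells *Ndufaf3* was the highest of them, and per 1000 coding bases *Ndufaf8* was, at 234 against 143. *Ndufaf3* had means of 48.1 and 85 CPM on CD and 75.1 and 118 on HFD, and *Ndufaf8* 95.6 and 56.7 on CD and 45.9 and 35.5 on HFD. *Ndufaf5*, which modifies *Ndufs7* during assembly, was counted in 4 and 4 cells on CD and 9 and 8 on HFD, with a median of 0 in each group and highest cells of 94.3 and 63.3 CPM on CD and 289 and 280.2 on HFD. It was thus higher on HFD in both labels, in a minority of cells. The HFD to CD ratio of its means was 4.93 in Pomc+ cells, 8.94 without cell 631, and 3.64 in Ghost cells, between 2.79 and 4.74 with any cell left out.

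The next assembly factors were picked out after their values were seen. *Ndufaf1*, which guides an intermediate of the membrane arm, was counted in 4 and 3 cells on CD and in 4 and 0 cells on HFD, with 191, 30, 538 and 0 counts. Its Ghost to Pomc+ ratio on CD was 0.0776, and it was 0.311 without cell 686 and 0.0131 without cell 633. Ghost cells on HFD, with no count, allow no ratio. *Ndufaf6*, an early assembly factor, was counted in 5 and 2 cells on CD and 3 and 5 on HFD. On CD its Ghost to Pomc+ ratio was 0.285, and it was 0.537 without cell 666 and 0.114 without cell 709. On HFD that ratio was 6.11, and it was 2.20 without cell 646 and 9.20 without cell 714. The HFD to CD ratio of *Ndufaf6* in Ghost cells was 10.4, and it was 3.73 without cell 646 and 25.9 without cell 709, and in Pomc+ cells it was 0.483, and 0.910 without cell 666 and 0.321 without cell 714. These ratios rest on few cells.

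Complex III summed to means of 1401 and 1402 CPM on CD and 1507 and 1697 on HFD in Pomc+ and Ghost cells. By CPM, 4 of its 8 genes were higher in Ghost cells on CD and 5 of 8 on HFD, and by normalized values 1 and 5 of 8 were, beside 48% and 43.6% of all genes by CPM and 30.8% and 36.5% by normalized values. On HFD against CD, 3 of 8 were higher in Pomc+ and 4 of 8 in Ghost cells by CPM, and 1 and 5 of 8 by normalized values, beside 54% and 48.2% of all genes by CPM and 51.7% and 57% by normalized values. *Uqcrfs1*, the Rieske iron-sulphur protein that passes electrons towards cytochrome c, lay between 0 and 492 CPM (median 124) in Pomc+ and between 0 and 893 (median 35.3) in Ghost cells on CD. Its HFD cells lay between 0 and 359 (median 3.17) in Pomc+ and between 0 and 1286 (median 161) in Ghost cells. Pomc+ cells on HFD were the low group and Ghost cells on HFD the high one by median, with overlap. The Ghost to Pomc+ ratio of its means on HFD was 4.47, between 3.62 and 5.96 with any cell left out. On CD it was 1.38, against the order of the medians. In Pomc+ cells the HFD to CD ratio was 0.457, and 0.514 without cell 700.

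*Uqcrc2*, a core subunit of complex III, was counted in 10 of 23 Pomc+ and 4 of 15 Ghost cells on CD, and in 5 of 19 and 11 of 19 on HFD. From a lowest cell of 0 in each group, its medians were 0 and 0 CPM on CD and 0 and 36.5 on HFD, and its highest cells 465, 155, 1329 and 1085 in the same order. Ghost cells on CD were low and Ghost cells on HFD were the only group with a median above 0. On CD the Ghost to Pomc+ ratio of its means was 0.212, and 0.108 without cell 687. The HFD to CD ratio in Ghost cells was 11.9, between 9.52 without cell 657 and 23.3 without cell 687, and in Pomc+ cells it was 1.63, and 0.925 without cell 639. *Uqcrc1*, its core partner, had means of 149 and 109.9 CPM on CD and 355 and 235 on HFD. Its HFD to CD ratio was 2.38 in Pomc+ cells, 1.32 without cell 639, and 2.14 in Ghost cells, 1.43 without cell 657.

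*Uqcrh*, the hinge protein of complex III, had medians of 173 and 353 CPM on CD and 107 and 189.6 on HFD in Pomc+ and Ghost cells, and its means had a Ghost to Pomc+ ratio of 1.38 on CD and 1.90 on HFD. *Uqcrq*, a small subunit, had means of 230.2 and 246 CPM on CD and 213 and 206 on HFD. *Uqcrb*, which takes part in ubiquinone binding, had means of 113 and 137 CPM on CD and 266 and 87.9 on HFD. Cell 693 held the highest Pomc+ HFD value of *Uqcrb*, 3228 CPM. Its Ghost to Pomc+ ratio on HFD was 0.330, and 0.863 without cell 693, and its HFD to CD ratio in Pomc+ cells was 2.35, and 0.899 without that cell.

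Complex IV was the complex with the largest difference between labels in the same direction on both diets by CPM. Its summed mean was 3041 and 3723 CPM on CD and 2732 and 3437 on HFD in Pomc+ and Ghost cells, with medians of 2632 and 4125 on CD and 2552 and 2928 on HFD. The Ghost to Pomc+ ratio was 1.22 on CD and 1.26 on HFD by CPM, and 0.728 and 1.28 by normalized values. On HFD, 9 of the 12 genes with a count in both groups were higher in Ghost cells by CPM, without the ubiquitous genes, and by normalized values. The median log2 ratio on these scales was 0.47, 0.50 and 0.43, and by CPM it lay between 0.35 and 0.61 with any cell left out. On CD, 10 of 12 were higher in Ghost cells by CPM and 2 of 12 by normalized values. Of all genes, 43.6%, 47.3% and 36.5% were higher in Ghost cells on HFD on the 3 scales, and 48% by CPM and 30.8% by normalized values on CD. Between diets, 5 of 12 were higher on HFD in Pomc+ cells by CPM and 0 of 12 by normalized values, and in Ghost cells 6 and 8 of 12 were, beside 54% and 51.7% of all genes in Pomc+ and 48.2% and 57% in Ghost cells.

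*Ndufa4* was counted in 60 of the 76 cells, and its lowest cell was at 0 in every group. Its median was 199 CPM in Pomc+ and 173 in Ghost cells on CD, and 129 and 213 on HFD, with highest cells of 853, 839.6, 464 and 892 in the same order. Pomc+ cells on HFD were the low group, within the range of the others. The Ghost to Pomc+ ratio of its means was 1.84 on HFD, between 1.64 and 2.04 with any cell left out, and 1.13 on CD, 0.962 without cell 691. The HFD to CD ratio was 0.676 in Pomc+ cells, and it was 1.10 in Ghost cells, 0.981 without cell 694. *Ndufa4l2*, its paralog, had 3 counts in 1 cell.

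*Cox4i1* was counted in 70 of the 76 cells. From a lowest cell of 0 in each group, its median was 373 CPM in Pomc+ and 434 in Ghost cells on CD, and 359 and 474 on HFD, with highest cells of 1419, 1105, 1007 and 1535 in the same order. The groups overlapped over nearly the whole range. The Ghost to Pomc+ ratio of its means was 1.13 on CD and 1.38 on HFD. *Cox4i2*, the isoform known from oxygen-sensing lung tissue, had 11 counts in 3 cells.

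Isoform pairs of complex IV were likewise uneven. *Cox6a2* and *Cox7a1*, known as the isoforms of heart and muscle, had 50 counts in 1 cell and 55 counts in 4 cells. *Cox6b2*, the testis isoform, had 25 counts in 2 cells and *Cox7b2* 58 counts in 1 cell. *Cox7a1* was counted in 3 Pomc+ cells on CD and 1 Ghost cell on HFD, and cell 701 held 90.1% of its Pomc+ CD level. Its means were 13.5 CPM in Pomc+ and 0 in Ghost cells on CD, and 0 and 2.98 on HFD.

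*Cox6a1*, the isoform outside muscle, lay between 0 and 1289 CPM (median 218) in Pomc+ and between 0 and 441 (median 173) in Ghost cells on CD. On HFD its range was 0 to 319 (median 122) in Pomc+ and 0 to 1862 (median 64.9) in Ghost cells. By mean, Pomc+ cells on HFD were the low group, and by median Ghost cells on HFD. The HFD to CD ratio of its means in Pomc+ cells was 0.381, between 0.344 and 0.447 with any cell left out. On HFD the Ghost to Pomc+ ratio was 1.94, and 1.15 without cell 652. *Cox8a* had medians of 407 and 644 CPM on CD and 345 and 397 on HFD, and a Ghost to Pomc+ ratio of 1.29 by mean on both diets. *Cox6b1* had means of 248 and 438 CPM on CD and 265 and 363 on HFD, and *Cox7b*, a small membrane subunit, 175 and 184 on CD and 197 and 144 on HFD.

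*Cox7a2l*, which helps to join complex III and complex IV into supercomplexes, lay between 0 and 535 CPM (median 59) in Pomc+ and between 0 and 2220.4 (median 229) in Ghost cells on CD. In HFD cells its median was 72.9 in Pomc+ and 27.8 in Ghost cells, with highest cells of 360.1 and 937, while the Ghost to Pomc+ ratio of its means on HFD was 1.64, and 1.26 without cell 649. Ghost cells on CD were the high group by CPM, and each range began at 0. The Ghost to Pomc+ ratio of its means on CD was 3.03 by CPM, and 2.04 without cell 684. On the scale of normalized values *Cox7a2l* was not 2-fold higher in Ghost cells on CD. The HFD to CD ratio was 0.832 in Pomc+ cells, against the order of the medians, and 0.451 in Ghost cells, 0.669 without cell 684. *Cox7a2*, its relative within complex IV, had means of 191 and 235 CPM on CD and 309.5 and 302 on HFD. Cell 693 held 59.7% of the Pomc+ HFD level of *Cox7a2*, and without it the Ghost to Pomc+ ratio on HFD was 2.29 in place of 0.975 and the HFD to CD ratio in Pomc+ cells 0.688 in place of 1.62.

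Complex V, the ATP synthase, summed to means of 3901 and 4045 CPM on CD and 3879 and 4082 on HFD in Pomc+ and Ghost cells. By CPM 11 of its 17 genes were higher in Ghost cells on each diet, and by normalized values 2 of 17 on CD and 9 of 17 on HFD. For all genes the shares were 48% on CD and 43.6% on HFD by CPM, and 30.8% and 36.5% by normalized values. Most were lower on HFD than on CD on both scales: the number higher was 6 of 17 in Pomc+ and 5 of 17 in Ghost cells by CPM, and 1 and 7 of 17 by normalized values, where 54% and 48.2% of all genes were higher by CPM and 51.7% and 57% by normalized values. *Atp5b*, the catalytic beta subunit, ran from 0 to 2885 CPM in Pomc+ and from 0 to 1242 in Ghost cells on CD, with medians of 746 and 378, and on HFD from 0 to 3228 and from 0 to 2334 with medians of 554 and 348. Ghost cells were low by median on both diets, with overlap. By mean, its Ghost to Pomc+ ratio was 0.545 on CD, between 0.476 without cell 687 and 0.615 without cell 666, and 0.808 on HFD, 0.987 without cell 693, and in Ghost cells the HFD to CD ratio was 1.37, against the order of the medians. *Atp5a1*, the alpha subunit of the same ring, had means of 543 and 698 CPM on CD and 568 and 672 on HFD. Its Ghost to Pomc+ ratio was 1.29 on CD, 0.923 without cell 712, and 1.18 on HFD, 0.976 without cell 657. *Atpif1*, the inhibitor of the enzyme, whose symbol lies outside the prefixes, had means of 60.9 and 57.9 CPM on CD and 87.0 and 99.6 on HFD.

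Exons of 31 of the 83 genes overlap another gene entry, 28 on the opposite strand and 5 on the same strand, and the library kit does not mark strand. Reads of such genes cannot be told apart, and reads of near-identical pseudogenes can be split, so their levels are uncertain. The same-strand cases were *Atp5g2*, *Ndufb2*, *Ndufb8*, *Ndufb9* and *Atp5o*, whose partner is another entry of the same symbol that had no count. Opposite-strand cases among the genes described above were *Ndufs1*, *Ndufs3*, *Ndufa2*, *Ndufa9*, *Ndufa13*, *Ndufb2*, *Ndufaf3*, *Uqcrb*, *Uqcrc2*, *Cox4i1* and *Atp5a1*. The limit holds for their levels and ratios too, including those that stayed past 2-fold with any cell left out.

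Across the 76 cells the complexes varied together, as a description of points that share library, depth and the denominator of CPM. The Spearman correlation of summed CPM was 0.77 for complexes I and IV, 0.74 for I and III and 0.70 for I and V, and the Pearson correlation of log10 values 0.83, 0.56 and 0.69. Without the ubiquitous genes, the Spearman values were 0.66, 0.57 and 0.48 and the Pearson values 0.72, 0.33 and 0.46. Within single groups some pairs were less close. For complexes III and V in Ghost cells on CD, the Pearson value was −0.01 and the Spearman value 0.44. For I and III in Ghost cells on HFD, they were 0.19 and 0.51. The summed level of the 83 genes had a Spearman correlation of 0.70 with that of the ribosomal protein genes and 0.20 with that of the mitochondrial protein genes, and without the ubiquitous genes 0.70 and 0.34. With the summed neuron markers it was 0.66, and 0.27 without the ubiquitous genes.

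Genes in mitochondrial DNA encode the other subunits of the chain. Of the 13 mitochondrial protein genes, *mt-Nd4l* with 9 counts and *mt-Atp8* with 5 counts did not pass the filter. In Pomc+ cells, 13 of 13 mitochondrial protein genes were higher on HFD than on CD by CPM, without the ubiquitous genes, and by normalized values, with median log2 ratios of 0.70, 0.73 and 0.90. In Ghost cells 10 of the 11 that were above the floor of 3 counts in at least 1 of the groups were higher on HFD by CPM, and 11 of 11 by normalized values. Of all genes, 54% by CPM and 51.7% by normalized values were higher on HFD in Pomc+ and 48.2% and 57% in Ghost cells. The mitochondrial protein genes had summed means of 4570.1 and 4875 CPM on CD and 7179 and 6273 on HFD in Pomc+ and Ghost cells. The medians were 3156 and 1725 on CD and 3987 and 6429 on HFD, so the labels had the opposite order by median on both diets. With any cell left out, 12 to 13 were higher on HFD in Pomc+ and 7 to 11 in Ghost cells by CPM. The difference between nuclear and mitochondrial genes was not tested. Ribosomal protein genes, the set used above as a reference, were higher in Ghost cells on CD for 75 of 82 by CPM and 27 of 82 by normalized values. On HFD 65 of 82 were by CPM and 61 of 82 by normalized values. Of all genes, 48% and 30.8% were higher in Ghost cells on CD, and 43.6% and 36.5% on HFD.

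Other genes of the pathway were taken from fixed lists, and the most abundant gene of a list is the one with the highest mean CPM over all 76 cells, without regard to length or group. Complex II, which feeds electrons from succinate, had a count for 4 of 4 genes and summed to means of 688 and 672 CPM on CD and 557 and 614 on HFD, with *Sdha* the most abundant at 321. *Cycs*, cytochrome c itself, had means of 130.1 and 137 on CD and 101 and 118 on HFD. Of 26 assembly factors outside the prefixes 23 passed the filter, and their sums were 655 and 718 on CD and 648 and 693 on HFD, with *Cox14* the most abundant and *Sco2* at 0. The 12 regulators of mitochondrial genes summed to 113 and 156 on CD and 137 and 135 on HFD, with *Yy1* the most abundant. The 4 carriers of ATP, phosphate and protons summed to 1279.5 and 1381 on CD and 1303 and 1322 on HFD, with *Slc25a4*, an ATP carrier, at 749.9. *Atpif1* and *Usmg5*, ATP synthase genes outside the prefixes, summed to 414 and 369 on CD and 490.3 and 422 on HFD. The 2-fold counts of the lists cover all listed genes, with a group at 0 set to its floor, while the shares cover genes past the filter. *Cox17*, outside the filter with 25 counts in 2 cells, is counted as lower in Ghost cells on HFD and as higher on HFD in Pomc+ cells. At 2-fold, the 26 assembly factors outside the prefixes had 6 higher and 5 lower in Ghost cells on CD, beside 23% and 31.1% of all genes, and 7 and 8 on HFD, beside 21.2% and 33.8%. The regulators had 3 and 3 on CD and 2 and 6 on HFD in the same order, complex II 1 and 0 on CD and 0 and 0 on HFD, and the carriers 1 and 0 on CD and 0 and 0 on HFD. On HFD against CD, the assembly factors had 3 higher and 6 lower in Pomc+ cells, beside 28.5% and 22.3% of all genes, and 7 and 7 in Ghost cells, beside 29.3% and 27.3%. The regulators had 5 and 1 in Pomc+ and 3 and 7 in Ghost cells. Complex II had 0 and 0 in Pomc+ and 1 and 0 in Ghost cells, and the carriers 0 and 0 and then 1 and 1.

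Markers of cell types were counted beside these levels, each list as summed mean CPM in Pomc+ and Ghost cells on CD and then on HFD, and the most abundant gene is again by mean CPM over all cells and need not lead in each group. All 8 neuron markers had counts and summed to 2592, 2038, 2391 and 1969.6 (*Snap25* the most abundant). The 6 markers of Pomc neurons had counts and summed to 15392, 9223, 5747 and 5674, *Pomc* being the most abundant. The 7 astrocyte markers had counts and summed to 898, 492, 1111 and 277, with *Aldoc* the most abundant. The 7 microglia markers summed to 216, 212, 1474 and 1324, with *Ctss* the most abundant, *P2ry12* at 0 in both CD groups and *Csf1r* at 0 in Pomc+ cells on CD. Without their highest cells, 704, 684, 718 and 657, these sums were 134, 65.8, 954 and 928. Microglia markers were thus higher on HFD in both labels, and the astrocyte sum was lower in Ghost than in Pomc+ cells on both diets. Among the astrocyte markers *Slc1a2* was higher in Ghost cells on CD, at 118 against 68.7 CPM, and the others were lower on both diets. The 6 oligodendrocyte markers summed to 208, 223, 575 and 374, with *Mbp* the most abundant, *Mag* at 0 in Ghost cells on CD and *Mog* at 0 in all groups but Pomc+ CD, and the Pomc+ HFD sum was 319.8 without cell 651. Of 6 markers of endothelial cells and pericytes 5 had counts and none passed the filter, with sums of 0.239, 0, 6.53 and 17.1, *Cldn5* the most abundant and *Rgs5* at 0. Without cells 630, 693 and 657 the sums above 0 were 0.114, 1.62 and 0.812. Of 5 markers of tanycytes and ependyma 4 had counts, with sums of 115, 81.8, 141 and 56.4, *Vim* the most abundant and *Rax* at 0, and the Pomc+ sums were 70.1 on CD without cell 686 and 86.9 on HFD without cell 645. The part of these markers in the differences described here was not tested.

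The promoters of the 83 genes were compared with all promoters to see what they share beyond their names. RefSeq promoters (GRCm38.p6, 250 bases before to 50 after the start) were found for 71 of the 83, as 76 promoters in a table of 32851, of which 11971 belong to genes past the filter. Motifs were searched on both strands. GCGCATGC, the core of the binding motif of NRF1, a regulator of respiratory genes, was in 14.5% of the 76 (exact 95% interval 7.45% to 24.4%), 2.71% of all promoters and 5.22% of those past the filter. AAGATGGCG, a YY1 motif, was in 10.5%, 1.40% and 3.08%. CCGGAAG, an ETS motif, was in 21.1%, 8.86% and 17.2%, and TGACGTCA, the cyclic AMP response element, in 5.26%, 1.79% and 3.11%. GGGCGG, an SP1 motif, was in 42.1%, 35.7% and 62.4%, and TATAAA in 7.89%, 13.6% and 6.84%. A match is a run of letters and not a shown binding site.

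The promoters of *Cox6a1*, the complex IV gene that stayed past 2-fold lower on HFD in Pomc+ cells, of *Ndufs7*, a core subunit of complex I, and of *Ndufa4* show members with and without these motifs. They lie at chr5:115348909-115349208 on the minus strand, chr10:80249199-80249498 on the plus strand and chr6:11907401-11907700 on the minus strand. Capitals mark, in *Cox6a1*, the NRF1 motif read on both strands with overlap, then an SP1 motif at each of the next sites and an ETS motif. In *Ndufs7* they mark TATAAA and the YY1 motif, and *Ndufa4* held none of the motifs in this window.
Cox6a1: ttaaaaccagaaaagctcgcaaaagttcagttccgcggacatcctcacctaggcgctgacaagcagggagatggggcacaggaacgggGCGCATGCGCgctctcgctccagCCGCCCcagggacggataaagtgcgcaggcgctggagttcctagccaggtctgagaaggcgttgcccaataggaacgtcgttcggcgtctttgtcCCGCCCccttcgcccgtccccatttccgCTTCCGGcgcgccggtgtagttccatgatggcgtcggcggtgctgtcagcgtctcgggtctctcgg
Ndufs7: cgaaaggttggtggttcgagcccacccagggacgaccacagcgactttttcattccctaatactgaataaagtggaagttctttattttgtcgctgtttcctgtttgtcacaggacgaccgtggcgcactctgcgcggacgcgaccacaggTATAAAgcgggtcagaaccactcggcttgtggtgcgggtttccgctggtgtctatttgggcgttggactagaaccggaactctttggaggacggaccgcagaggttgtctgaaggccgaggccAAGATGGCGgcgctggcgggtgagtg
Ndufa4: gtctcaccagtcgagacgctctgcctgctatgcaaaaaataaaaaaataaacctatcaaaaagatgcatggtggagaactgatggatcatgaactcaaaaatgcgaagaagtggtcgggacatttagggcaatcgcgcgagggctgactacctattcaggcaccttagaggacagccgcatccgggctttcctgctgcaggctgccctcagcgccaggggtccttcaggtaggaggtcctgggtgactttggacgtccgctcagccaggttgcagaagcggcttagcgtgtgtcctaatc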

How the data were processed

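Single-cell RNA of 76 Patch-seq neurons was measured in 4 groups of eGFP label and diet. The authors trimmed reads with cutadapt 2.10, aligned them with STAR 2.7.5a to GRCm38 (mm10), and deposited a table of raw counts per gene. They also deposited a normalized table, a signal in counts divided by a size factor per cell, made with DESeq2. The handling of multimapping and overlapping reads is not stated. From the counts, CPM per cell, group means, ratios and exact Clopper-Pearson 95% intervals were computed with Python 3.11.15, NumPy 2.4.6, pandas 2.3.3 and SciPy 1.17.1, and figures with matplotlib 3.10.9, after tests on simulated data. A gene is past 2-fold at a ratio of at least 2 or at most 0.5. Of 56980 genes, 52073 had a symbol; pseudogenes were taken from the annotation. *Ndufb1-ps*, which RefSeq lists as protein-coding, was kept. Named genes were the marker genes, core and catalytic subunits, isoform pairs, the 2 most abundant genes per complex, and the 2 highest and 2 lowest ratios per comparison among those counted in 20 or more cells. The values of 1 gene named by this rule are not reported. Coding length is the longest coding sequence in GENCODE. Members and lists were chosen with earlier results of these data known. Alternatives were other scales, averages, filters, cells, depth and membership, and leaving out each cell.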

Additional observations from a re-analysis of the deposited data

Results flagged for a closer look

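Among the 83 genes, a pair was past 2-fold in opposite directions in the comparisons of label on the 2 diets, and likewise in those of diet in the 2 labels. The log2 Ghost to Pomc+ ratio of *Ndufaf6* was −1.81 on CD and 2.61 on HFD, and its HFD to CD ratio was −1.05 in Pomc+ and 3.37 in Ghost cells. For *Cox7a1*, which was at 0 in Ghost cells on CD and in Pomc+ cells on HFD, the log2 ratios with such a group set to 3 counts over its summed total were −4.40 and 3.11, and −5.29 and 2.22. These are not bounds on a mean over cells, as 1 count in a shallow cell can exceed that floor. The 2-fold calls of *Ndufaf6* on CD and in Pomc+ cells each ended without cell 666, where the ratios were 0.537 and 0.910. Of all 12265 genes past the filter, 15.3% were past 2-fold in opposite directions in the comparisons of label and 15% in those of diet, against 2.41% of the 83 in each. *Ndufaf6* was counted in 15 cells and *Cox7a1* in 4. The comparisons share their groups, and the difference between them was not tested.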

How the results depend on the processing

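With the deposited normalized values, the summed ratio was 0.641 and 1.17 for Ghost against Pomc+ on CD and HFD, and 0.630 and 1.15 for HFD against CD in Pomc+ and Ghost cells. The median log2 ratio was −0.61 on CD, −0.63 in Pomc+ and 0.038 in Ghost cells. On CD 0 genes were 2-fold higher and 25 lower, beside 14.6% and 45.7% of all genes. In Pomc+ cells 2 were 2-fold higher and 26 lower, beside 30.7% and 24.9% of all genes. By complex, I, III, IV and V stood at 0.655, 0.594, 0.728 and 0.581 on CD, complex I at 0.911 on HFD, complex III at 0.648 in Pomc+ and complex IV at 1.03 in Ghost cells. Without the 7 ubiquitous genes, the sums were 1.11, 1.13, 0.979 and 0.999, with 6 genes higher on CD, and complex V was at 0.971 on HFD, 1.04 in Pomc+ and 0.936 in Ghost cells. With summed counts, CD had 0.898, a median of −0.13, 1 higher and 11 lower, Pomc+ cells 0.743, −0.46 and 1 higher, and Ghost cells 0.925. Medians over cells gave 1.01, 1.01, 0.901 and 0.903. Cells with 1000 or more genes gave 1.09, 1.23 and 0.861 for CD, HFD and Pomc+ cells. Removing the ubiquitous genes and thinning to 10000 counts, which left out 6 cells, gave 1.12 with 7 higher on CD, 1.23 with 18 higher on HFD, 0.910 in Pomc+ and 1 in Ghost cells. For summed counts, thinning and left-out cells, the share of all genes past 2-fold was not computed, and the counts of genes stand alone.

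Leaving out each cell, the sum lay at 1.04 to 1.14 on CD, 1.04 to 1.17 on HFD, 0.912 to 1.0 in Pomc+ and 0.908 to 1.03 in Ghost cells. On CD 1 to 4 genes were higher and 5 to 11 lower, and the median in Ghost cells was −0.22 to 0.072. *Ndufs3* on HFD against CD in Pomc+ cells had 0.890 at the lowest and 2.86 at the highest. Blocks of cell numbers gave 0.603, 1.12, 1.51 and 1.04 on CD and 1.28 and 0.637 on HFD. Relative to ribosomal protein genes, an alternative chosen after seeing the data, the sums were 0.652, 0.867, 0.893 and 1.19. Marker sums without their highest cell were also added after seeing the data. Other alternatives chosen so were leaving out *Ndufb1-ps* and adding *Atpif1* and *Usmg5*: each kept 16 of 16 results, and the 2 other filters each kept 12 of 12. The cause was not tested in any of these cases. No paired analysis was possible because the labels name no mouse or replicate.

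After that removal and thinning, the share of cells with a count was within its interval for 29 of 34 named genes and below it for 5, and the median share was 60% against 67.1%. The parts of depth, cells and removed genes in this were not separated. Each group is 1 sample of cells from an unknown split of 5 mice per diet, so cell, mouse and experiment cannot be told apart. CPM and normalized values gave opposite directions for the summed level on CD and in Ghost cells, and which scale follows RNA per cell was not tested. Most genes were at 0 in some cells of each group, and a count of 0 at this depth does not show absence.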
